A study of Rattus norvegicus with 45 samples.

Results

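Trh, Avp, Oxt, Pmch, Pomc, Gal, Hcrt and Cartpt encode precursors of peptides that neurons of the hypothalamus make, and they are described here across 6 brain libraries and 39 libraries of other tissues. They were taken by gene symbol, and all 8 were found once each among the 20794 genes measured. They were selected on their brain FPKM levels, which were already known, so their brain values are a description and carry no test. The animals were male spontaneously hypertensive rats, an inbred strain with high blood pressure, aged 8 weeks and weighing 220 to 260 g. One arm received empagliflozin, an inhibitor of the sodium-glucose cotransporter SGLT2, by gavage at 10 mg/kg per day, and the other received saline vehicle, both for 30 days. The series held 45 libraries in 15 groups of 3, with both arms in brain, kidney, aorta, brown fat, white fat, lung and the libraries titled V, and atrium under empagliflozin alone. All groups were of the hypertensive strain, and no normotensive rats were analysed here.

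Each of these genes is transcribed in restricted groups of neurons. The magnocellular cells of the paraventricular and supraoptic nuclei make vasopressin and oxytocin, the lateral hypothalamus makes melanin-concentrating hormone and orexin, and the arcuate nucleus makes the melanocortin precursor. The precursors are cut by prohormone convertases in dense-core granules, and the released peptides act on G protein-coupled receptors to control water balance, feeding, arousal and pituitary secretion. Because the cell groups are small and confined, a level measured in brain tissue depends on which part of the brain was taken. The labels give the tissue as brain and name no region.

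Levels were deposited as FPKM, a fragment number divided by transcript length and by library size, so genes can be compared per length, and read depth is unknown. The sum of FPKM ranged from 414248 to 824205 over all libraries and from 414248 to 432604 in brain. Neuronal Snap25 lay between 475 and 1696 FPKM in the brain libraries, and Rbfox3, which marks most mature neurons, between 69.2 and 178 FPKM. Across genes, brain empagliflozin library 3 correlated with the other 5 brain libraries at Pearson r of 0.896 to 0.938, whereas each of the others had a closest partner at 0.963 to 0.988. The libraries titled V are labelled as liver but described as ventricle in the design. They held 8491 to 9512 FPKM of cardiac Tnnt2 and at most 0.09 FPKM of hepatic Alb, and are called V libraries here.

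The members that stood highest are shown with the 250 bases before their start sites, from RefSeq's promoter table on build GRCr8. Avp and Oxt lie next to each other on chromosome 3 and are transcribed from opposite strands, with no gene between them in the RefSeq table. Their upstream windows are chr3:138248523-138248772 (minus strand) and chr3:138235504-138235753 (plus strand). Cartpt, the member whose brain level varied most among the remaining libraries, has its window at chr2:32991236-32991485 (minus strand). All are written 5′ to 3′ in the direction of transcription, with matches to the searched motifs in capitals.
Avp: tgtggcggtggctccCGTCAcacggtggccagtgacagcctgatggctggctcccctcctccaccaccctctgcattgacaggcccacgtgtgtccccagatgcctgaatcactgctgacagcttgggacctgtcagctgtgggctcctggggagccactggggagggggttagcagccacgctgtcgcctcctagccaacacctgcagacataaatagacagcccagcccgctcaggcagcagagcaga
Oxt: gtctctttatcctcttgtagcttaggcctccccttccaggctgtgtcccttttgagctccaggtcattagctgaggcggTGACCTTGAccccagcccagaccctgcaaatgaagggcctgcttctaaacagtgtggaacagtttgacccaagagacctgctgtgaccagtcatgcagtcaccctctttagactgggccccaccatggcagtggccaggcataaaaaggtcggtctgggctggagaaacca
Cartpt: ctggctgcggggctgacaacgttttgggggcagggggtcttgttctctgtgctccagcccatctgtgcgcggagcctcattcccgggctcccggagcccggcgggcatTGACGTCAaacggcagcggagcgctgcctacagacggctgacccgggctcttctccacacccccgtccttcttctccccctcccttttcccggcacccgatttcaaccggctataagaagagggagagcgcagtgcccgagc
The motifs were searched on both strands, and 7 of the 8 members had a window, all but Pmch. The letters TGACG, the core of a cyclic AMP response element, were in 4 members (Avp, Trh, Gal and Cartpt) and in 19.0% of 27457 windows of all genes. In Cartpt the match fell on both strands, overlapping as one palindrome from 142 to 135 bases before the start. The TATA box TATAAA was in 3 members (Hcrt, Gal and Pomc) and in 13.1% of all windows. The letters TCAAGGTCA, an extended half-site of the kind that nuclear receptors acting as monomers recognise, were in Oxt, 171 to 163 bases before the start, and in 0.368% of all windows. The homeodomain core TAATTA was in 0 members and in 4.94% of all windows. These matches describe the letters of the windows and say nothing of binding in these rats.

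All 8 genes were highest in brain empagliflozin library 3. The 5 remaining brain libraries, 3 vehicle and 2 empagliflozin, held 0 to 3.79 FPKM of every member but Cartpt. Summed over the members, library 3 held 4640.87 FPKM, or 1.07% of its total. The sums in vehicle libraries 1, 2 and 3 were 28.53, 6.42 and 10.42 FPKM, and those in empagliflozin libraries 1 and 2 were 39.92 and 4.72 FPKM. The sums of the 2 arms overlapped apart from library 3, which stood above both. Of all 13721 genes with a brain mean of at least 1 FPKM, 42.2% were highest in that library, which is the background for the count of 8 of 8. That contrast chose the members, and nothing is read from it.

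**Figure D1:**
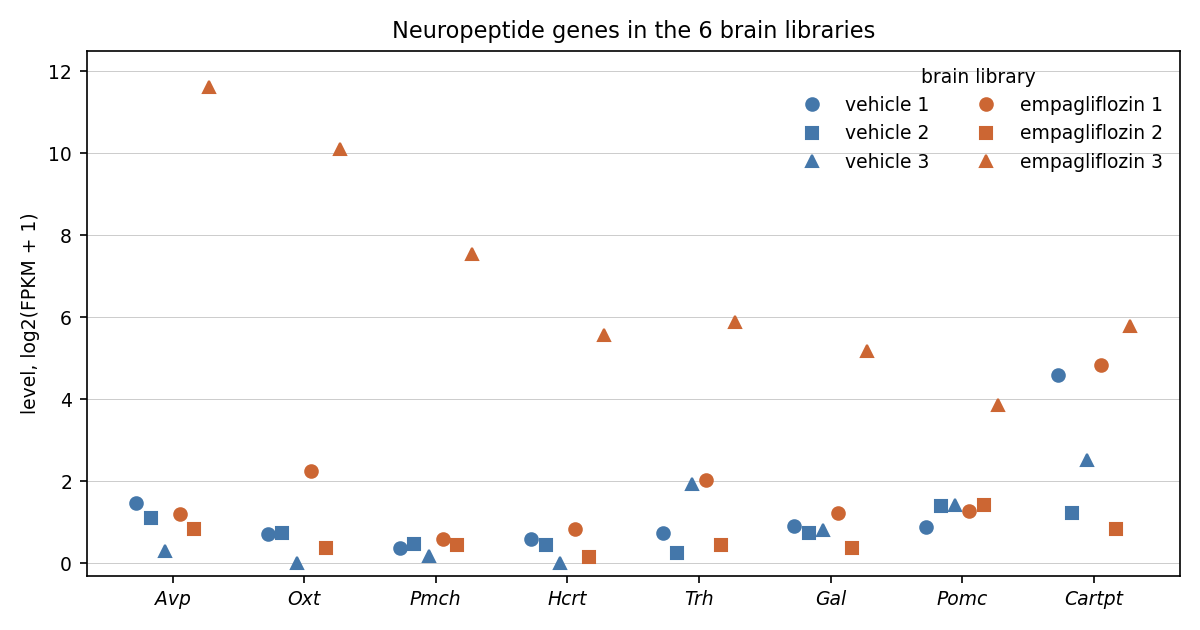
Level of each of the 8 neuropeptide genes, as log2(FPKM + 1), in the 6 brain libraries; colour marks the arm and shape the library number. Brain empagliflozin library 3 is the highest point for all 8 genes, from 13.62 FPKM for Pomc to 3153.54 FPKM for Avp.

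Avp encodes vasopressin, the antidiuretic and vasoconstrictor hormone of the posterior pituitary. Its level was 1.76, 1.14 and 0.23 FPKM in vehicle brain libraries 1, 2 and 3, and 1.31, 0.79 and 3153.54 FPKM in empagliflozin libraries 1, 2 and 3. The vehicle and empagliflozin libraries overlapped except for the last, which was 1792 times the highest of the others. There Avp was the gene with the third highest level of all (rank 3) and made up 0.729% of the library's FPKM. Oxt encodes oxytocin, the hormone of parturition and milk ejection, made in neighbouring magnocellular cells. It was at 0.65, 0.68 and 0 FPKM in the vehicle libraries and at 3.79, 0.29 and 1094.01 FPKM in the empagliflozin libraries. It too was high in library 3 alone, at 289 times the next library, with rank 15 and 0.253% of the library. Over the other 5 libraries the order of the libraries differed between these adjacent genes, with Avp highest in vehicle library 1 and Oxt highest in empagliflozin library 1.

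Pmch encodes melanin-concentrating hormone, a peptide that promotes feeding and sleep, and Hcrt encodes the orexins, which sustain wakefulness. Both are products of separate neurons of the lateral hypothalamus. Pmch was at 0.30, 0.38 and 0.14 FPKM in the vehicle libraries and at 0.52, 0.36 and 185.77 FPKM in the empagliflozin libraries. The last was 357 times the next highest, and the other libraries all lay under 1 FPKM. Hcrt was at 0.50, 0.37 and 0 FPKM in the vehicle libraries and at 0.79, 0.12 and 46.32 FPKM in the empagliflozin libraries. Library 3 was 58.6 times the next, and the arms overlapped without it. Per length, Pmch exceeded Hcrt in library 3, whereas in the other 5 both lay under 1 FPKM and their order differed between libraries.

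Trh encodes thyrotropin-releasing hormone, which drives the pituitary-thyroid axis and is also made outside the hypothalamus. It was at 0.66, 0.19 and 2.83 FPKM in the vehicle libraries and at 3.11, 0.37 and 58.30 FPKM in the empagliflozin libraries. Apart from library 3, which was 18.7 times the next, it was highest in empagliflozin library 1 and vehicle library 3. Gal encodes galanin, an inhibitory peptide that many hypothalamic and brainstem neurons release with another transmitter. It was at 0.87, 0.68 and 0.77 FPKM in the vehicle libraries and at 1.34, 0.29 and 35.23 FPKM in the empagliflozin libraries, with library 3 at 26.3 times the next. The vehicle values of Gal lay between the low and the middle empagliflozin value.

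Pomc encodes the precursor of the melanocortins, of corticotropin and of beta-endorphin, and Cartpt encodes a peptide made with it in arcuate neurons that restrain feeding and also in other regions. Pomc was at 0.85, 1.63 and 1.69 FPKM in the vehicle libraries and at 1.44, 1.70 and 13.62 FPKM in the empagliflozin libraries. It stood 8.01 times above the next library, and its rank in library 3, 6606, was the lowest of the members. Cartpt was at 22.94, 1.35 and 4.76 FPKM in the vehicle libraries and at 27.62, 0.80 and 54.08 FPKM in the empagliflozin libraries. It was the one member with high levels elsewhere, in vehicle library 1 and empagliflozin library 1, and library 3 was 1.96 times the next. The highest of those 5 libraries was 34.5 times the lowest for Cartpt, 16.4 times for Trh, 7.65 times for Avp, 4.62 times for Gal, 3.71 times for Pmch and 2 times for Pomc. For Oxt and Hcrt no such ratio is given, since vehicle library 3 was listed at 0.

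As a deviation, log2(FPKM + 1) of a library minus the median of the other 5, library 3 was 10.53 higher for Avp, 9.37 for Oxt, 7.10 for Pmch, 5.16 for Trh and 5.11 for Hcrt. These were ranks 1 to 5 among the 13721 brain genes. Gal followed with 4.36 at rank 10, Cartpt with 3.26 at rank 40 and Pomc with 2.47 at rank 120. The median over the 8 members was 5.13 there, and 0.03, -0.12 and -0.43 in the vehicle libraries and 0.39 and -0.40 in empagliflozin libraries 1 and 2. All 8 members were at least 1 higher on this scale in library 3, as were 6.5% of the brain genes. In the other libraries 0.998% to 2.41% of the brain genes were that much higher. With a level of at least 1 FPKM on average over the other 5 libraries as the condition, 5 members remained among the brain genes (Avp, Oxt, Trh, Pomc and Cartpt), and Pmch, Hcrt and Gal entered only through library 3.

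The mean difference between the arms rested on that library. On the log2 scale, empagliflozin minus vehicle, it was 3.60 ± 3.55 (SE, n = 3 per arm) for Avp, 3.75 ± 2.99 for Oxt, 2.52 ± 2.34 for Pmch and 1.84 ± 1.71 for Hcrt. It was 1.82 ± 1.69 for Trh, 1.43 ± 1.48 for Gal, 0.96 ± 0.86 for Pomc and 1.04 ± 1.80 for Cartpt. The median over the members was 1.83 with all libraries and 0.14 without library 3. Without it the difference was 0.07 for Avp, 0.18 for Pmch, 0.16 for Hcrt, 0.27 for Trh, -0.03 for Gal, 0.12 for Pomc and 0.06 for Cartpt, and 0.82 for Oxt, where empagliflozin library 1 was highest. Over all brain genes limma called 0 of 14000 between the arms (0% called, 360 at an unadjusted p under 0.05, smallest adjusted p = 0.982). 

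The members' levels correlated over the 6 brain libraries. Pearson r of log2(FPKM + 1) over the 28 pairs of members ran from 0.47 to 0.998 with library 3. Without it, r ran from -0.73 to 0.91 and was below 0 in 8 pairs. The lowest of these was between Avp and Pomc, and the highest between Oxt and Hcrt. The points of each pair share libraries and their scaling, and these values are a description. The 10 other genes most like the members' mean profile over the 6 libraries, out of 3189 compared, were Pros1, Ufsp1, Cmbl, Tcf7l2, Sqor, RT1-CE3, Ngfr, Clec10a, Aplnr and Arhgap36, at r of 0.992 to 0.999. Of the genes compared, 525 had r above 0.9, and 1 of the 10 stayed in the list without library 3. Among them Arhgap36 was at 13.02 FPKM in library 3 and at 0 to 1.12 FPKM in the others, and Ngfr, a neurotrophin receptor, was at 8.45 FPKM against 0.20 to 0.65 FPKM.

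Whether library 3 differed in other genes of the hypothalamus was read from 13 transcription factors that specify or mark its nuclei. All 13 were highest in that library and 7 were at least 1 higher on the log2 scale. Among all 19406 genes above 0 in brain, those shares were 39.8% and 5.54%. The summed level of the 13 was 47.12 FPKM against 0.56 to 2.95 FPKM in the others. Otp, needed for the neuroendocrine cells of the paraventricular nucleus, was at 21.09 FPKM there and at 0 to 0.15 FPKM elsewhere. Sim1, which acts with it, was at 2.00 FPKM against 0.02 to 0.07 FPKM. Fezf1 and Nr5a1, markers of the ventromedial nucleus, were at 8.44 and 3.68 FPKM, against at most 0.11 and 0.16 FPKM. Nkx2-1, a regulator of the ventral hypothalamus, was at 4.40 FPKM against 0.17 to 1.37 FPKM. Hmx2, Hmx3, Bsx, Six6, Rax and Lhx1 were listed at 0 in all of the other 5 libraries and at 0.46 to 1.09 FPKM in library 3.

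Other genes of hypothalamic peptides, listed together with the enzyme gene Hdc, did not share one direction. Of 24 found, 13 were highest in library 3 and 9 at least 1 higher on the log2 scale. Among all genes above 0 in brain those shares were 39.8% and 5.54%. A further 3 were at least 1 lower, beside 2.62% of the 13721 brain genes. Those 13721 averaged at least 1 FPKM, a filter that was not set for the 24. Tac1, the precursor of substance P, was at 115.66 FPKM in library 3 and 101.44 FPKM in empagliflozin library 1, against 3.14 to 13.70 FPKM in the other 4. The opioid precursors Penk and Pdyn were at 288.04 and 93.58 FPKM in library 3 and at 428.31 and 62.11 FPKM in empagliflozin library 1. In the other 4 libraries Penk lay between 14.08 and 87.79 FPKM and Pdyn between 7.17 and 17.31 FPKM. Others stood at low levels. Npvf, of the dorsomedial nucleus, was at 3.26 FPKM against 0, Ghrh, which releases growth hormone, at 1.98 FPKM against 0 to 0.72 FPKM, and Gnrh1 at 3.58 FPKM against 0.30 to 1.45 FPKM. Agrp, the antagonist of melanocortin receptors made beside Pomc neurons in the arcuate nucleus, was at 0.98 FPKM, inside the range of 0.21 to 1.35 FPKM. Hdc, the histamine-forming enzyme of the tuberomammillary nucleus, was at 0.09 FPKM and highest in vehicle library 3 at 0.84 FPKM. Cck, abundant in cortical neurons, was at 9.10 FPKM in library 3 against 240.82 to 615.15 FPKM, and Vip at 3.28 FPKM against 5.79 to 21.93 FPKM.

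Of the lists of other brain regions, the striatal one set library 3 and another library apart by its sum. The sums of the cortical, cerebellar and monoamine ones set library 3 alone apart, though the last 2 rested on few genes. Cerebellar genes summed to 68.23 FPKM there against 11.26 to 36.58 FPKM. Most of that came from Zic1, at 31.05 FPKM against 5.71 to 20.37 FPKM, and Cbln1, at 28.77 FPKM against 0.60 to 8.06 FPKM. Gabra6 was lowest there, at 0.03 FPKM, and Pcp2 was listed at 0. Genes of midbrain and raphe monoamine neurons summed to 37 FPKM against 6.34 to 10.72 FPKM, and Th alone gave 24.03 FPKM of it. In library 3 Pitx3 was lowest, at 0.05 FPKM. Slc6a3 and Tph2, at 0.03 and 0.33 FPKM, lay inside the range of the other libraries. In both of these lists 4 of 8 genes were highest and 1 lowest in library 3, beside 39.8% highest among all genes above 0 in brain. Of 7 cortical genes 6 were lowest there, all but Cux2, where 15.3% of the brain genes were lowest. They gave a sum of 30.33 FPKM against 417.44 to 917.09 FPKM. Slc17a7, the vesicular glutamate transporter of cortical neurons, was at 7.31 FPKM against 331.01 to 716.42 FPKM, and Neurod6 at 0.34 FPKM against 19.13 to 150.56 FPKM. The 8 striatal genes summed to 703.94 FPKM in library 3 and 1140.22 FPKM in empagliflozin library 1, against 89.42 to 132.15 FPKM in the other 4. Drd1, the D1 dopamine receptor, was at 50.07 and 45.20 FPKM in those 2 libraries and at 1.64 to 5.27 FPKM in the rest. Cartpt was high in both, and also in vehicle library 1, whose striatal sum was 104.14 FPKM. Hippocampal genes summed to 151.54 FPKM in vehicle library 3 and 82.79 FPKM in vehicle library 1, and to 15.57 FPKM in empagliflozin library 3, inside the range of the others. Thalamic and olfactory bulb genes also summed to values inside that range, 32.7 FPKM in 17.9 to 43.57 FPKM and 9.48 FPKM in 2.85 to 16.24 FPKM. Their median deviations in library 3, 0.37 and 0.41, were above those of the other libraries, at most 0.31 and 0.23. Of 6 thalamic genes 2 were highest in library 3 and 1 lowest. Tcf7l2 was at 9.34 FPKM there against 2.01 to 3.07 FPKM, and Gbx2 at 1.82 FPKM against 0 to 0.31 FPKM. Ramp3 was the lowest one, at 3.10 FPKM against 3.26 to 11.15 FPKM, and Prkcd, Plekhg1 and Tnnt1 were highest in other libraries. Of 5 olfactory bulb genes 3 were highest in library 3. The cortical, striatal, hippocampal and hypothalamic sums thus differed between libraries of the same arm, and the labels name no dissected region, so its part in the members' levels was not tested.

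**Figure D2:**
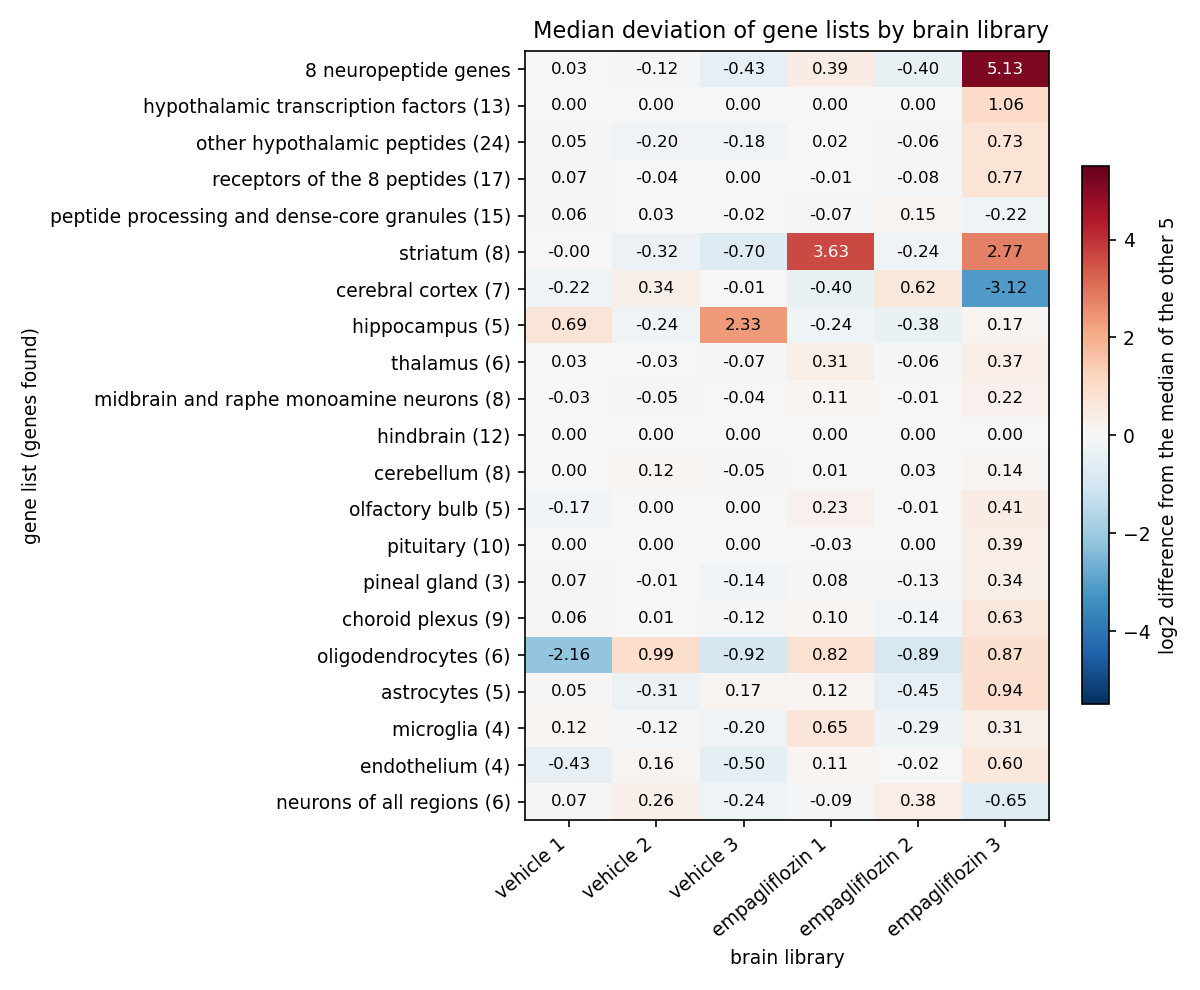
Median log2 deviation of each gene list in each brain library from the median of the other 5 libraries, with the number of genes found in brackets; red is higher and blue lower. Library 3 of the empagliflozin arm has medians of 5.13 for the neuropeptide genes and -3.12 for the cortical genes, and empagliflozin library 1 has 3.63 for the striatal genes.

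Cells next to the hypothalamus were checked as well. Of 10 pituitary genes 8 were highest in library 3, as were 39.8% of all genes above 0 in brain, with a sum of 9.66 FPKM against 1.99 to 4.14 FPKM. Of the hormone genes Lhb was highest, at 3.04 FPKM against 0.76 to 1.42 FPKM, with Gh1 at 1.96 FPKM, Prl at 0.54 FPKM, Cga at 0.11 FPKM, and Fshb and the transcription factor Pitx1 at 0. Of 9 choroid plexus genes 6 were highest in library 3, beside the same 39.8%, and the 9 summed to 34.43 FPKM against 1.45 to 12.96 FPKM. Aqp1 and Kcnj13, at 11.75 and 10.59 FPKM, gave most of that sum. Ttr, at 7.78 FPKM against 0 to 8.57 FPKM, and Folr1, at 0.23 FPKM against 0.06 to 1.37 FPKM, lay inside the range of the others. Th, the first enzyme of dopamine synthesis, was at 24.03 FPKM against 0.62 to 1.39 FPKM, while Slc6a3, the transporter that marks midbrain dopamine neurons, was at 0.03 FPKM. Hindbrain genes, many of them Hox genes, summed to 1.41 FPKM, inside the range of 0.53 to 1.90 FPKM. Genes of neurons of all regions summed to 1388 FPKM in library 3 against 1863 to 3206 FPKM, and astrocyte genes to 1160 FPKM against 518 to 1079 FPKM. Of the 5 astrocyte genes 3 were highest in library 3 and 1 lowest, beside 42.2% and 15.3% of the brain genes. Gfap was at 452.26 FPKM against 56.11 to 330.37 FPKM, and Slc1a2 at 194.01 FPKM against 219.11 to 353.15 FPKM. The part of these cells in the members' levels was not tested, and in bulk tissue more cells of a type and more RNA per cell cannot be told apart.

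The members share a secretory machinery, and its genes were expressed in every brain library. The 15 processing and granule genes summed to 2631 FPKM in library 3 and to 2804 to 3100 FPKM in the others. In library 3, 5 were highest and 7 lowest, beside 42.2% and 15.3% of the brain genes. On the log2 scale 2 were at least 1 higher, beside 6.5% of the brain genes, and the median deviation was -0.22. Qpct, which forms the amino-terminal pyroglutamate of peptides such as thyrotropin-releasing hormone, was at 15.30 FPKM against 0.84 to 4.42 FPKM. Scg2, a granin of dense-core granules, was at 216.21 FPKM against 53.94 to 169.74 FPKM. The convertase Pcsk2 was lowest there, at 46.55 FPKM against 66.24 to 121.70 FPKM, and Pcsk1, which cuts the melanocortin precursor, was highest, at 5.40 FPKM against 2.91 to 4.51 FPKM.

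The 17 receptors listed for these peptides include none for the Cartpt peptide or for beta-endorphin. They were at low levels in all brain libraries, with sums of 20.77 to 36.22 FPKM, and 31.95 FPKM in library 3. There 9 were highest and 6 at least 1 higher on the log2 scale, beside 39.8% and 5.54% of all genes above 0 in brain. The share highest is thus near that of all genes. One of the 17, Trhr2, was taken by gene identifier from a row that carries the symbol Mlnr. Galr2, a galanin receptor, was at 2.57 FPKM and listed at 0 in the other 5. The melanocortin receptors Mc3r and Mc4r were at 1.86 and 1.87 FPKM, against at most 0.13 and 0.99 FPKM. Avpr1a, the vascular and central vasopressin receptor, was at 1.72 FPKM against 0.36 to 0.69 FPKM. Mchr1, the receptor of melanin-concentrating hormone, was lowest in library 3, at 10.22 FPKM against 14.55 to 19.44 FPKM, while its ligand was highest there. Trhr, Oxtr and Galr1 were instead highest in vehicle library 1, at 4.58, 2.47 and 3.57 FPKM, against 2.16, 1.99 and 2.57 FPKM in library 3. Between the arms limma called 0 of the 7 brain receptors tested, beside 0 of 14000 brain genes. Mc4r and Oxtr averaged at least 1 FPKM, the condition for testing, only in the empagliflozin arm, where library 3 was highest. Empagliflozin libraries 1 and 2 were at 0.66 and 0.48 FPKM for Mc4r and at 0.89 and 0.23 FPKM for Oxtr. Trhr and Galr1 met the condition only in the vehicle arm, where library 1 was highest.

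Outside brain, 7 of the 8 members were near 0. Oxt was listed at 0 in 38 of 39 libraries and reached 0.22 FPKM, and Hcrt was at 0 in 37 and reached 0.13 FPKM. Trh was at 0 in 20 and reached 0.21 FPKM. Pmch was above 1 FPKM in 1 library, vehicle lung 2 at 1.14 FPKM, and the other vehicle lung libraries were at 0.69 and 0.45 FPKM. Gal was highest in aorta, at 1.85 FPKM in vehicle library 2 and 1.75 FPKM in empagliflozin library 2, with the remaining 4 aorta libraries between 0 and 0.58 FPKM. Cartpt reached 2.16 FPKM in aorta empagliflozin library 2 and was at 0 in 27 libraries. Avp was above 0 in 29 of the 39 libraries and at least 1 FPKM in 6, with a maximum of 2.05 FPKM in vehicle brown fat library 3. Of these 6 libraries 3 were aorta, at 1.42, 1.57 and 1.06 FPKM. Brain had the highest mean for these 7 genes with its empagliflozin library 3 included. Without that library Pmch averaged 0.34 FPKM in brain, below lung at 0.60 FPKM. Gal averaged 0.79 FPKM against 0.70 FPKM in aorta, and Avp 1.05 FPKM against 0.78 FPKM in aorta. The rest of the 7 also stayed highest in brain. Below brain, neighbouring tissues in the order of mean levels differed by more than the larger SD in 3 places for these 7 genes, all at levels under 1 FPKM on average. Avp in atrium exceeded that in lung by 0.32 FPKM, with ranges that did not overlap. Pmch in lung exceeded that in kidney by 0.46 FPKM and Gal in lung that in kidney by 0.19 FPKM, both with overlapping ranges. A 0 in such a table can also be a failed estimate.

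**Figure D3:**
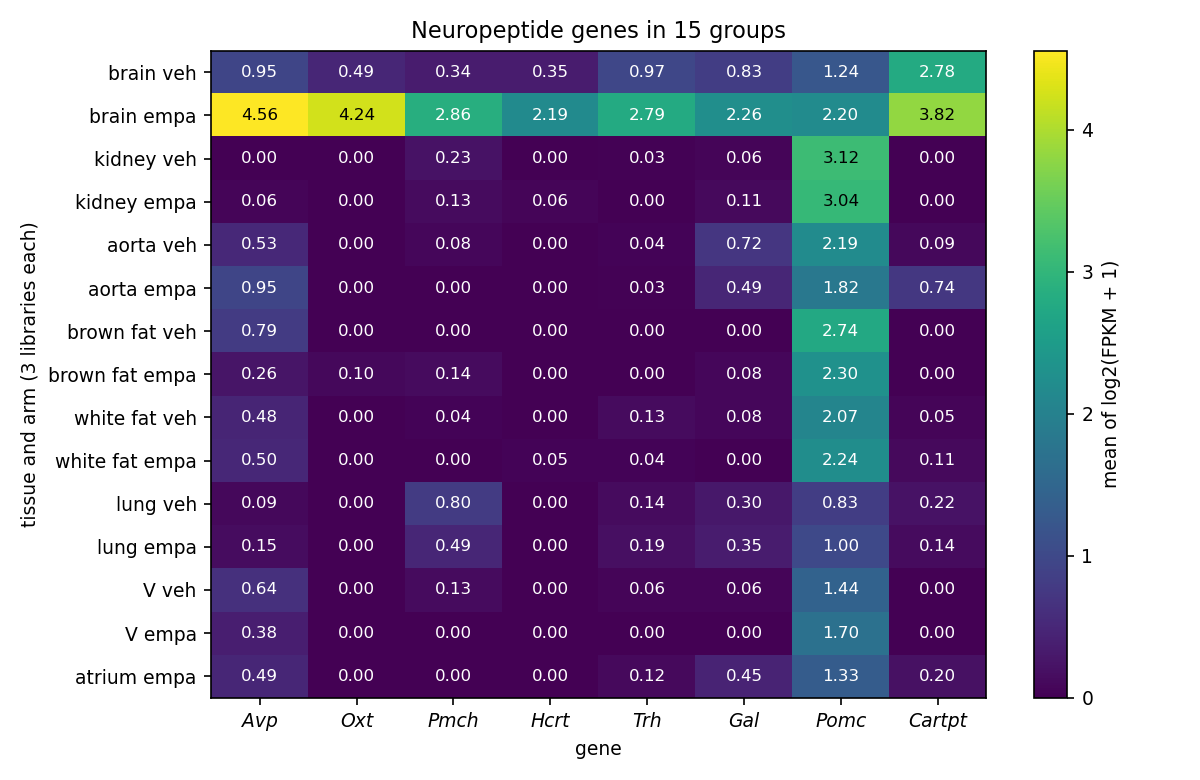
Mean of log2(FPKM + 1) over the 3 libraries of each of the 15 groups (rows; veh, vehicle; empa, empagliflozin) for the 8 neuropeptide genes (columns). Outside brain, Pomc is the one gene above 1 in most groups, and the high brain empagliflozin row rests on library 3.

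Pomc was the exception, being above 0 in all 39 libraries outside brain and at least 1 FPKM in 36. Averaged over all libraries of a tissue, it was at 7.50 ± 0.71 FPKM in kidney (SD, n = 6), 4.93 ± 1.60 FPKM in brown fat, 3.84 ± 3.72 FPKM in aorta and 3.63 ± 1.49 FPKM in white fat. It was at 3.49 ± 4.97 FPKM in brain, 2.01 ± 0.52 FPKM in V, 1.52 ± 0.23 FPKM in atrium (n = 3) and 0.93 ± 0.44 FPKM in lung. The brain mean rested on empagliflozin library 3 and was 1.46 FPKM without it, below atrium, and the aortic mean was 2.41 FPKM without vehicle library 1, below white fat. Each tissue's range overlapped that of the next in this order. The difference of neighbouring means exceeded the larger SD only between kidney and brown fat and between atrium and lung. In 5 of the 6 brain libraries Pomc was below every kidney library.

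The arms did not differ in Pomc outside brain beyond their spread. In kidney it was at 8.32, 7.89 and 6.94 FPKM in the vehicle libraries and at 7.54, 7.89 and 6.39 FPKM in the empagliflozin libraries, which overlap. The log2 difference was -0.08 ± 0.14 (SE; limma adjusted p = 0.774, n = 3 per arm). In brown fat vehicle libraries were at 4.78, 7.68 and 4.98 FPKM and empagliflozin libraries at 4.79, 4.64 and 2.68 FPKM, a difference of -0.44 ± 0.25 (limma adjusted p = 0.994). In white fat they were at 3.71, 3.66 and 2.34 FPKM against 1.98, 3.90 and 6.20 FPKM, a difference of 0.17 ± 0.35 (limma adjusted p = 0.823). The empagliflozin values of white fat enclosed those of vehicle. In lung Pomc was tested only because the empagliflozin arm, the higher of the arms, averaged 1.06 FPKM, against 0.80 FPKM in vehicle, and the difference was 0.17 ± 0.26 (limma adjusted p = 0.850). Without lung empagliflozin library 1 or 3 Pomc fell below the filter and was not tested. In V the difference was 0.27 ± 0.19 (limma adjusted p = 0.999). Pomc was the 1 of 8 members that passed the filter on low values in each of these tissues, and it was called in 0 of them. The share of genes called was 0% in kidney, aorta and lung, 0.0085% in brown fat, 0.00785% in white fat and 0.0085% in V, or at most 1 gene. The labels do not say more of the replicates than 3 rats per arm, so these p-values measure the spread between libraries.

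In aorta 2 libraries stood apart in tissue markers. Pomc was at 10.99, 2.01 and 1.64 FPKM in the vehicle libraries and at 4.91, 1.61 and 1.87 FPKM in the empagliflozin libraries, highest in the library numbered 1 of each arm. In those 2 libraries the smooth muscle gene Myh11 was at 12.03 and 38.02 FPKM, against 357.07 to 1117.80 FPKM in the other 4. Ucp1, the uncoupling protein of brown fat, was at 10224 and 7322 FPKM there, against 19.40 to 4041 FPKM. The log2 difference between the arms was -0.37 ± 0.67 (limma adjusted p = 0.999), and 0.33 without vehicle library 1. The part of adjoining fat in the aortic level was not tested.

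**Figure D4:**
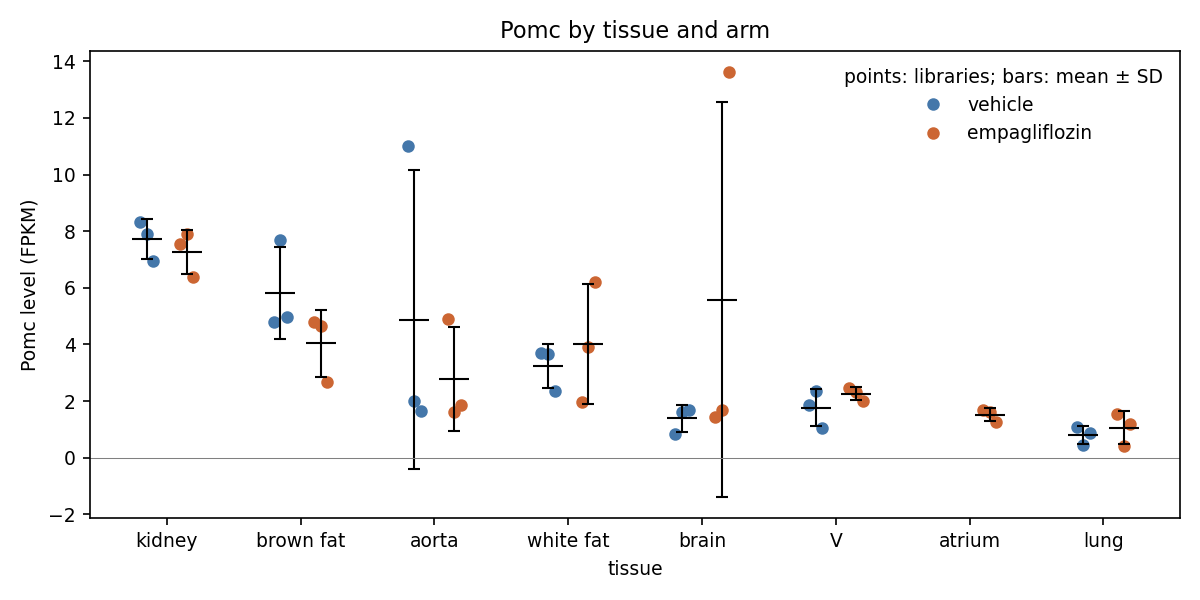
Pomc level in FPKM by tissue and arm, with each library as a point and the mean ± SD as bars; atrium has empagliflozin libraries only. Kidney libraries lie between 6.39 and 8.32 FPKM, and 1 brain and 1 aorta library lie above all others.

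The tissues that hold the peptides' targets were seen in the receptors. In white fat the oxytocin receptor Oxtr had a mean of 145.8 ± 72.4 FPKM (SD, n = 3) with vehicle and of 190.1 ± 120.2 FPKM (n = 3) with empagliflozin, against 0.13 to 2.47 FPKM in brain. The corticotropin receptor Mc2r was at 43.9 ± 19.1 and 49.7 ± 16.9 FPKM in white fat, and at 17.9 ± 4.30 and 21.0 ± 2.25 FPKM in brown fat. In kidney Avpr2, the vasopressin receptor of the collecting duct, was at 14.92, 16.70 and 15.01 FPKM in the vehicle libraries and at 62.67, 20.66 and 59.80 FPKM in the empagliflozin libraries. The arms did not overlap, with empagliflozin library 2 near vehicle and the other 2 well above. The log2 difference was 1.41 ± 0.40, and Avpr2 was not called (limma adjusted p = 0.418). With each kidney library left out in turn the difference ranged from 1.14 to 1.91, and Avpr2 was called in 1 of the 6 fits. That was the fit without empagliflozin library 2 (1.91, limma adjusted p = 0.00361). The library left out there is the one near vehicle, which widened the spread, so nothing is read from that p-value. Aqp2, the water channel that vasopressin controls in the same cells, was at 326.56 to 443.23 FPKM in vehicle and at 1204, 418.88 and 1189 FPKM in empagliflozin libraries 1, 2 and 3. Umod, of the thick ascending limb, was at 3546 to 3668 FPKM in vehicle and at 2037, 3794 and 2235 FPKM in empagliflozin libraries 1, 2 and 3. Slc34a1, the phosphate transporter of the proximal tubule, was at 1541 to 1993 FPKM in vehicle and at 1476, 1249 and 1078 FPKM in empagliflozin libraries 1, 2 and 3, where library 2 was not near vehicle. The part of the nephron segments sampled was not tested. Avp itself was at 0 in 5 of the 6 kidney libraries and at 0.13 FPKM in the other. Of the 17 receptors, 4 each were tested in aorta and white fat, 2 each in kidney and brown fat, and 1 each in V and lung. Of these limma called 0, beside 0 or 1 of all genes tested per tissue. Galr2 in aorta and Mc4r in V averaged at least 1 FPKM only under empagliflozin, with Galr2 reaching 4.65 FPKM in 1 library. Mc5r in white fat did so only with vehicle. The receptors below that level in both arms were not tested.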

How the data were processed

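Per the labels, RNA from 8 tissues was read from 1 end over 50 bases. HISAT2 2.0.4, Bowtie2 2.2.5 and the rat build Rnor_6.0 are named in the submitters' processing notes; no counting program is given in the sources used here. The authors deposited FPKM per gene and library. FPKM are not counts, so depth is unknown and no counting interval was made. Reads shared with near-identical or overlapping genes could not be told apart. The members and gene lists were chosen with earlier results of these data known. The kidney and aorta markers set beside Avpr2 and Pomc were chosen after their values were seen.

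Each tissue was tested alone, 3 against 3 libraries, with limma 3.58.1 in R 4.3.3 (intensity trend, empirical Bayes, two-sided, Benjamini-Hochberg over all genes tested, threshold 0.05) on log2(FPKM + 1). Genes entered if either arm averaged 1 FPKM or more. This scale understates the change of low genes. A deviation is the log2(FPKM + 1) of a brain library minus the median of the other 5. Named were all members, receptors of at least 1 FPKM, up to 4 list genes with the largest deviation per list and markers at 0, and the 10 genes most like the members by r. Of these some list genes are given as counts only, and a few more list genes were named for their role. Genes were matched by symbol, except Trhr2 and Car8, which were matched by gene identifier to rows with the symbols Mlnr and Ca8. Nms, Fev, Hoxa4 and Hoxa5 were not found. Motifs were searched in RefSeq's promoter windows of build GRCr8 and not of the build of the files.

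The titles give the replicate numbers. Lung libraries of the same number deviated together from their arm means (r = 0.233, 0.308 and 0.351), which meets the rule used for pairs, and no other tissue met it. The lung values given are from the fit without the block, and the block changed no call. Alternatives were a pseudocount of 0.1, quantile normalization, median-ratio scaling, no filter, a stricter minimum of 5 FPKM, the replicate number as a block, all libraries in 1 fit, and leaving out each library. The fits of all libraries without 1 brain library each, and the Pomc means without 1 library, were added after seeing the data.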

Additional observations from a re-analysis of the deposited data

How the results depend on the processing

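The deviation of brain empagliflozin library 3, a median over the members of 5.13, lay between 4.96 and 6.44 under a pseudocount of 0.1, quantile normalization, median-ratio scaling, the mean of the other 5 libraries and the other arm as reference. The members' median arm difference ranged from 0.14 to 2.92 with 1 brain library left out. The count of 0 brain genes called, and of 0 genes of the lists, held under 6 of 7 settings. With all 45 libraries in 1 fit, which takes 1 spread per gene from all tissues, limma called 191 brain genes, 17 of them in the lists, and 1 receptor, Avpr2 in kidney (adjusted p = 6.53e-05). With each tissue alone and 1 library left out, limma called 0 to 8 brain genes and 0 to 2 list genes, and the 8 came without empagliflozin library 2. In the single fit it called 166, 428 and 70 without vehicle brain libraries 1, 2 and 3, and 170, 554 and 96 without empagliflozin libraries 1, 2 and 3. The list genes among them were 14, 21, 4, 13, 33 and 6. A lone missing library leaves 2 in that arm. Receptor calls ranged from 0 to 1 with a library left out, the 1 being Avpr2 without kidney empagliflozin library 2. With 1 library left out, the Pomc difference ranged from -0.14 to 0.0027 in kidney, from -0.76 to 0.33 in aorta and from -0.13 to 0.51 in white fat. It ranged from -0.56 to -0.23 in brown fat, from 0.024 to 0.41 in lung over 4 of 6 such fits and from 0.069 to 0.42 in V. Its sign turned without kidney empagliflozin library 3, aorta vehicle library 1 and white fat empagliflozin library 3. Calls of members outside brain were 0 in the settings run. With all libraries of a tissue and a filter on low values, Pomc was the 1 member tested. Further members were tested with no filter. Some also passed the filter when a library was left out, such as Avp in aorta without empagliflozin library 3. Pomc was not tested in lung without empagliflozin library 1 or 3, which says nothing of stability. With the replicate number as a block limma called 0 brain genes, 0 members and 0 receptors, and Pomc in lung had an adjusted p of 0.685; the block changed no call. With a mean of at least 5 FPKM, Pomc was tested in kidney and brown fat alone. Causes of these shifts were not tested. Levels under 1 FPKM, most of the members outside brain, are too low for a difference to be seen at an unknown depth.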
